A study of Mus musculus with 18 samples.

Results

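The epithelial oxidase and nitric oxide genes of the mouse colon are described here by 7 of the 47729 genes in a table of RNA-seq read counts. They are *Duox2*, *Duoxa2*, *Nox1*, *Noxo1*, *Nos2*, *Ddah1* and *Gpx2*. They were chosen by name, with their measured differences between groups already known, so their values in the comparisons below are a description and carry no test. All 7 passed the filter on low counts, as did 16937 genes in all.

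Colon RNA was taken from WT and *Cldn2*KO mice, the latter lacking claudin-2, a tight junction protein that forms a paracellular channel for cations and water. In each genotype there were controls, a group in recovery from dextran sulfate sodium (DSS, which injures the epithelium and brings on colitis) and a group given DSS after the carcinogen azoxymethane (AOM). A treatment text that is the same for every sample, controls included, gives a dose of AOM of 10 mg/kg and 3 cycles of DSS at 2.5%. It was taken here to describe the AOM/DSS groups alone. The DSS regimen of the recovery groups and the length of recovery are not given in the sources used here. Per the study's methods all mice were on a C57BL/6 background and knockouts were compared with WT littermates matched for age and sex. Ages are not given, and nothing limits the knockout to a cell type. Each of the 6 groups held 3 libraries of 17.6 to 27.4 M reads, and levels are given as counts per M reads (CPM, scaled by the TMM method). The labels do not say that the libraries came from separate animals, so every p-value measures the spread between libraries.

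Dual oxidases and NADPH oxidases move electrons from NADPH across a membrane to oxygen. Epithelial cells of the gut use DUOX2 and NOX1 in this way to release hydrogen peroxide and superoxide at their luminal surface, and inducible nitric oxide synthase makes nitric oxide from arginine when cells meet inflammatory cytokines or microbial products. Peroxidases such as GPX2 remove the peroxide that reaches the cell interior.

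The colon label was checked against cell type markers. Summed over 10 epithelial markers, the level ranged from 14390 to 27710 CPM over the 18 libraries, and all 10 had reads in every group. *Cldn2* stood between 44.5 and 504 CPM in the 9 WT libraries and between 0.0555 and 0.557 CPM in the 9 *Cldn2*KO libraries. *Hoxb13*, a gene of the most distal colon, stood between 198 and 570.1 CPM in 11 libraries and at most at 0.502 CPM in the other 7, which were all 6 recovery libraries and WT control replicate 2. *Xist*, a gene of female cells, was high (865 to 1742 CPM) in 6 libraries, the replicates 2 and 3 of WT recovery, *Cldn2*KO recovery and *Cldn2*KO AOM/DSS, and at most at 1.16 CPM in the rest. By this gene the sexes were not matched between *Cldn2*KO and WT AOM/DSS or between recovery and control. The study's text gives distal colon as the source of the recovery RNA, and the recovery libraries go against that by this gene. Recovery and a low *Hoxb13* level therefore cannot be told apart in the recovery groups, and values without WT control replicate 2 are given where they matter. In bulk tissue, fewer cells of a type and less RNA per cell cannot be told apart either.

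*Duox2* (ENSMUSG00000068452, GRCm38 chromosome 2, 122279247 to 122298449, minus strand) encodes the catalytic dual oxidase, and *Duoxa2* (ENSMUSG00000027225, chromosome 2, 122298900 to 122302885, plus strand) the maturation factor that carries it to the cell surface. The genes lie head to head, with 450 bases between the annotated gene ends and 673 bases between their RefSeq starts. Since their levels went together across libraries, the 250 bases upstream of the *Duoxa2* start are shown (RefSeq, GRCm38, chr2:122298650-122298899, plus strand), which lie wholly between the genes. Capitals mark a TATAAA box at 30 to 25 bases before the start.

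Duoxa2: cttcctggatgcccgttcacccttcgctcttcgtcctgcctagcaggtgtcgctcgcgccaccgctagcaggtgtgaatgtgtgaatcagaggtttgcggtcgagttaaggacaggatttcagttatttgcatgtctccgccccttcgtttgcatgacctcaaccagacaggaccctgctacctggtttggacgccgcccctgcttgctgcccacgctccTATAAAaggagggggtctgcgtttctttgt

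*Nox1* (ENSMUSG00000031257, chromosome X, 134086421 to 134221956, minus strand) encodes the superoxide-making catalytic subunit of the colon oxidase. *Ddah1* (ENSMUSG00000028194, chromosome 3, 145758675 to 145894277, plus strand) encodes an enzyme that breaks down asymmetric dimethylarginine, an inhibitor that cells make against nitric oxide synthases. The bases upstream of these RefSeq starts are shown because the level of *Nox1* divided with *Hoxb13* and *Ddah1* had the smallest SE of the 4 genes called between the control genotypes. The *Nox1* window is chrX:134111855-134112104 (minus strand), within the span of a longer annotated *Nox1* transcript, and capitals mark a match to the NF-kB consensus on the opposite strand, 91 to 82 bases before the start. The *Ddah1* window is chr3:145758442-145758674 (plus strand), the 233 bases that lie outside annotated exons.

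Nox1: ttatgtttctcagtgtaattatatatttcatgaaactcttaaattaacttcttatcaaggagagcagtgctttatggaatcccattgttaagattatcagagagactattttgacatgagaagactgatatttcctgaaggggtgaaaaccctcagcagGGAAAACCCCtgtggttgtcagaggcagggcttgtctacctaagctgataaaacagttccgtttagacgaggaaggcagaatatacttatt

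Ddah1: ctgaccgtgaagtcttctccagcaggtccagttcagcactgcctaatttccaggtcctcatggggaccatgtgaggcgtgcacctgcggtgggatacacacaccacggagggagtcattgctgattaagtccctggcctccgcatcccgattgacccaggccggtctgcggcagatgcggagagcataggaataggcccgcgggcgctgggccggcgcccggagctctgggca

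The searched letters were TATAAA, TTCNNNGAA (a STAT motif), GAAA, any 2 bases and GAAA (an interferon response motif), TGACNNNGC (the core of the antioxidant response element) and the NF-kB consensus, on both strands. Of 27025 RefSeq promoters, 13% held TATAAA in the 250 bases upstream, 7.2% the STAT motif, 3.0% the interferon motif, 10.1% the antioxidant core and 3.8% the NF-kB consensus. Of the 7 genes, 6 had an entry in the promoter table, and *Nos2* had none. Beyond the matches marked above, none of these letters occurred in the upstream windows of the 6 genes, of which those of *Noxo1* and *Duox2* were only 77 and 28 bases long outside exons. A match is a stretch of letters and not a site shown to be bound.

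*Duox2* had levels of 442, 339 and 375 CPM in WT controls and 78.8, 105.7 and 67.4 CPM in the *Cldn2*KO controls. The lowest WT control was therefore above 3 times the highest *Cldn2*KO control, as the plot of levels by library shows. In recovery *Duox2* stood at 116, 85.7 and 63.5 CPM in WT and at 98.1, 342 and 286 CPM in *Cldn2*KO. After AOM/DSS it stood at 156, 176 and 361 CPM in WT and at 232, 166 and 344 CPM in *Cldn2*KO. By mean the order was WT control (385 ± 52.1 CPM, SD, n = 3), *Cldn2*KO AOM/DSS (247 ± 90.0), *Cldn2*KO recovery (242 ± 128), WT AOM/DSS (231 ± 113), WT recovery (88.4 ± 26.4) and *Cldn2*KO control (84.0 ± 19.7). Of the neighbours in this order, WT AOM/DSS and WT recovery did not overlap, and every other neighbouring pair did.

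*Duoxa2* had levels of 97.2, 83.3 and 90.1 CPM in WT controls and 8.78, 14.4 and 12.6 CPM in the *Cldn2*KO controls. In recovery it stood at 35.9, 12.2 and 16.2 CPM in WT and at 14.03, 44.6 and 71.0 CPM in *Cldn2*KO. *Cldn2*KO recovery replicate 1 was the low library of its group for both genes. After AOM/DSS *Duoxa2* stood at 31.4, 37.1 and 114 CPM in WT and at 67.7, 38.9 and 70.9 CPM in *Cldn2*KO, with the 114 CPM in WT replicate 3, which was also the WT AOM/DSS library highest in *Duox2*. By mean the order was WT control (90.2 ± 6.91 CPM), WT AOM/DSS (61.0 ± 46.4), *Cldn2*KO AOM/DSS (59.2 ± 17.6), *Cldn2*KO recovery (43.2 ± 28.5), WT recovery (21.5 ± 12.7) and *Cldn2*KO control (11.9 ± 2.86), and all neighbours in this order overlapped.

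**Figure D1:**
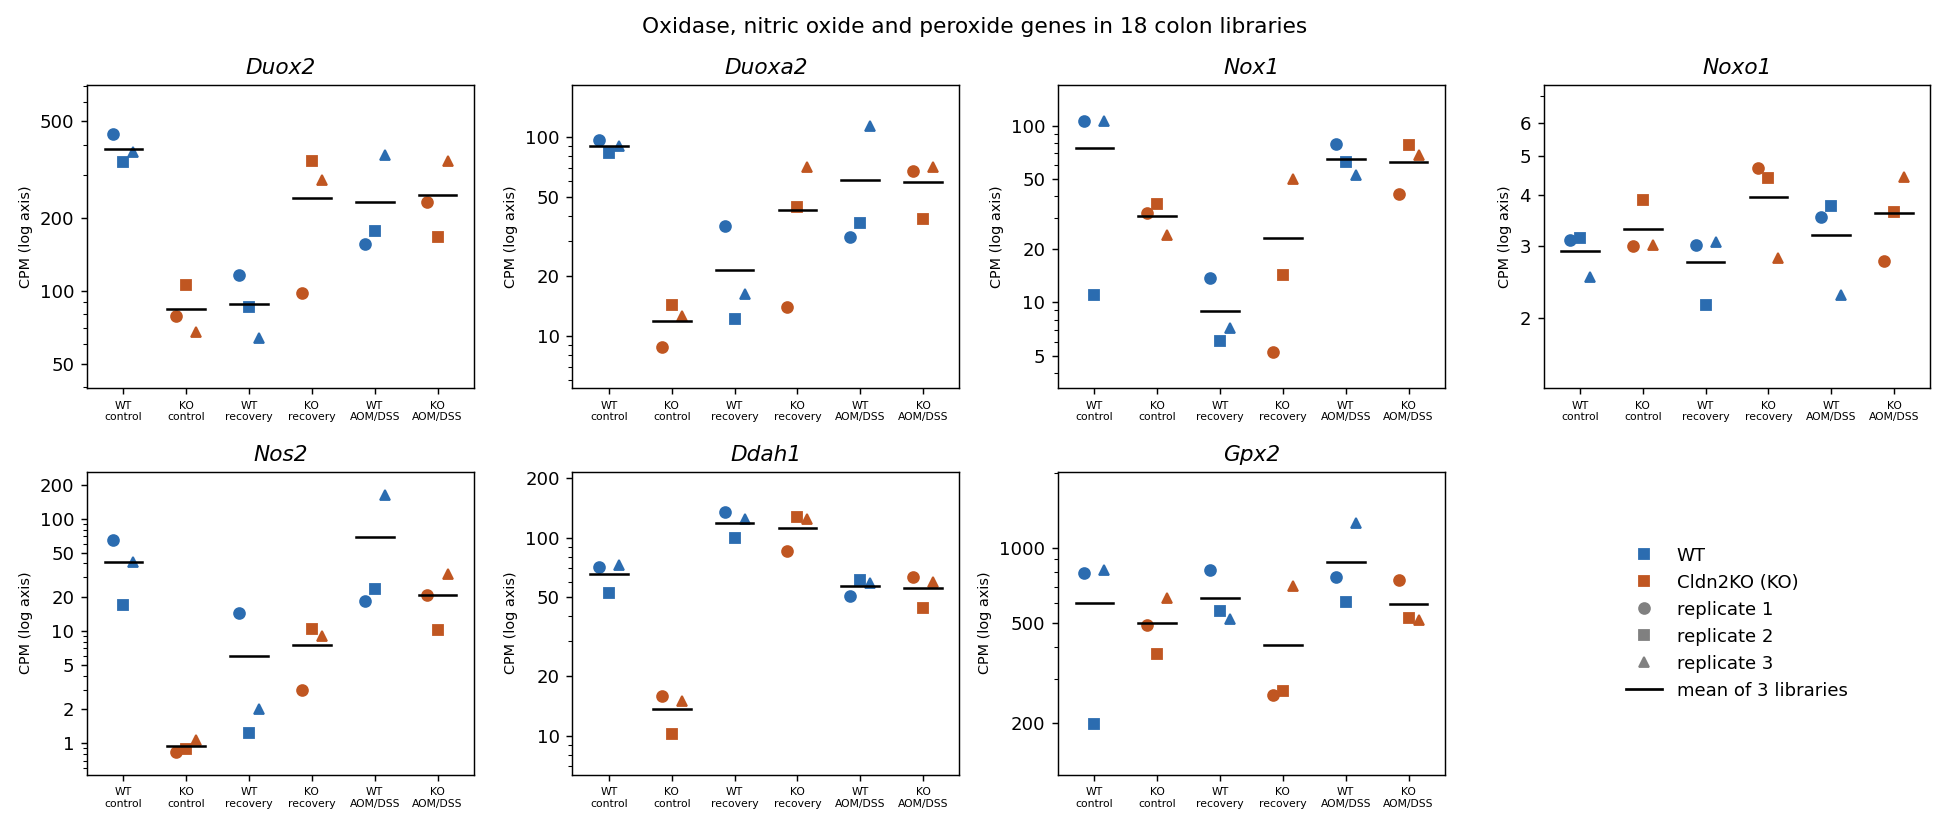
Level of each of the 7 genes in CPM (vertical log axis) in the 6 groups (horizontal axis), with a point per library shaped by replicate number, WT in blue, *Cldn2*KO in orange and a black line at the mean of the 3 libraries. *Ddah1* in the *Cldn2*KO controls lies between 10.2 and 15.9 CPM, below every other library, and *Nos2* in the *Cldn2*KO controls lies at most at 1.08 CPM.

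Per kilobase of exon, the level of *Duoxa2* divided by that of *Duox2* lay between 0.448 and 1.27 over the 18 libraries. It was 0.885, 0.988 and 0.968 in the WT controls and 0.448, 0.547 and 0.752 in the *Cldn2*KO controls, without overlap. The maturation factor was thus low relative to the oxidase in the group where both had their lowest mean. In the recovery groups the ratio spread from 0.572 to 1.25 in WT and from 0.526 to 0.997 in *Cldn2*KO, and these ranges overlapped.

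*Nox1* had levels of 107, 11 and 106 CPM in WT controls. The value of 11 CPM belonged to replicate 2, the only control library without *Hoxb13* above the limit of 10 CPM. The *Cldn2*KO controls stood at 32.1, 35.9 and 24.1 CPM, WT recovery at 13.7, 6.03 and 7.16 CPM and *Cldn2*KO recovery at 5.25, 14.2 and 50.2 CPM. After AOM/DSS *Nox1* stood at 79.2, 62.3 and 52.6 CPM in WT and at 41.2, 78.1 and 68.1 CPM in *Cldn2*KO. Over all groups it ranged from 24.1 to 107 CPM (median 62.3) in the 11 libraries with *Hoxb13* and from 5.25 to 50.2 CPM (median 11) in the 7 without, so its low values moved with that split, and the part of the split in them was not tested. By mean the order was WT control (74.6 ± 55.1 CPM), WT AOM/DSS (64.7 ± 13.4), *Cldn2*KO AOM/DSS (62.5 ± 19.1), *Cldn2*KO control (30.7 ± 6.05), *Cldn2*KO recovery (23.2 ± 23.8) and WT recovery (8.97 ± 4.15). The neighbours that did not overlap were *Cldn2*KO AOM/DSS and *Cldn2*KO control. *Nox1* overlaps *Cstf2* on the other strand, and strand was not stated for the counting, so its counts are uncertain.

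*Noxo1* (ENSMUSG00000019320, chromosome 17, 24696234 to 24700529, plus strand) encodes the organizer that holds the NOX1 complex at the membrane. Its level lay between 2.15 and 4.66 CPM in all 18 libraries, on 30 to 126 reads each, and the 6 group means ran from 2.75 ± 0.516 CPM in WT recovery to 3.96 ± 1.01 CPM in *Cldn2*KO recovery, with all neighbours overlapping. *Tbl3* overlaps it on the other strand with 9602 reads in the table, so these few reads are uncertain too. The counted level of *Noxo1* did not go with that of *Nox1*, its catalytic partner, and such uncertain counts cannot tell whether the transcripts did. Across the 11 libraries with *Hoxb13*, Pearson's r of the log2 levels of *Nox1* and *Noxo1* was 0.055 (Spearman's rho 0.073), and across the 7 others it was -0.14 (rho -0.21).

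*Nos2* (ENSMUSG00000020826, chromosome 11, 78920787 to 78960254, plus strand), the inducible nitric oxide synthase, had the widest range of the 7 genes, 196-fold from the lowest to the highest library. It measured 65.1, 17.2 and 41.1 CPM in WT controls and 0.838, 0.888 and 1.08 CPM in the *Cldn2*KO controls, which is 16 to 20 reads per library. The *Cldn2*KO controls were the group with the least spread, and every other library stood above them. In recovery *Nos2* stood at 14.5, 1.22 and 2.01 CPM in WT and at 3.00, 10.4 and 9.10 CPM in *Cldn2*KO. After AOM/DSS it stood at 18.5, 23.9 and 164 CPM in WT and at 20.9, 10.2 and 32.3 CPM in *Cldn2*KO. WT AOM/DSS replicate 3, with 164 CPM, was also the library highest in 5 of the 10 neutrophil markers, *S100a8* (174 CPM) and *S100a9* (135 CPM), against at most 10.4 and 10.3 CPM in the other 17, *Csf3r* (10.5 CPM), *Retnlg* (10.4 CPM) and *Cxcr2* (3.45 CPM). It was not the highest in the other 5. *Ly6g* stood at 256 CPM there and at 343 to 529 CPM in 5 of the 6 controls. It stood at 0.589 CPM in WT control replicate 2 and at 6.89 to 80.5 CPM in the recovery libraries, so its level divided with *Hoxb13*. *Ngp* and *Camp* were at 0.236 and 0.095 CPM with higher values in other libraries, and the granule genes *Mpo* and *Elane* were at or near 0 in all 18 libraries. The part of neutrophils in that value was not tested. By mean the order was WT AOM/DSS (68.9 ± 82.7 CPM), WT control (41.1 ± 24.0), *Cldn2*KO AOM/DSS (21.1 ± 11.1), *Cldn2*KO recovery (7.50 ± 3.95), WT recovery (5.92 ± 7.47) and *Cldn2*KO control (0.934 ± 0.126), and all neighbours overlapped except the last pair.

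*Ddah1* had tight groups. It measured 71.2, 52.7 and 72.5 CPM in WT controls and 15.9, 10.2 and 14.9 CPM in the *Cldn2*KO controls. In recovery it stood at 135, 99.3 and 124 CPM in WT and at 85.6, 128 and 125 CPM in *Cldn2*KO, the highest levels of any group. After AOM/DSS it stood at 50.7, 61.2 and 58.9 CPM in WT and at 63.4, 44.2 and 60.1 CPM in *Cldn2*KO. By mean the order was WT recovery (119 ± 18.2 CPM), *Cldn2*KO recovery (113 ± 23.4), WT control (65.5 ± 11.1), WT AOM/DSS (56.9 ± 5.51), *Cldn2*KO AOM/DSS (55.9 ± 10.2) and *Cldn2*KO control (13.6 ± 3.06). The recovery groups did not overlap with any other group, the *Cldn2*KO controls stood apart below, and the 3 groups in between overlapped.

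*Gpx2* (ENSMUSG00000042808, chromosome 12, 76792333 to 76795554, minus strand), the glutathione peroxidase of gut epithelium, was the most abundant of the 7 per length, at a mean of 564 CPM per kilobase in the WT controls, and it was above 99.5% of the tested genes. It measured 793, 198 and 815 CPM in WT controls, again low in replicate 2, and 490.1, 378 and 628 CPM in the *Cldn2*KO controls. It stood at 819, 560.2 and 519 CPM in WT recovery, at 259, 268 and 702 CPM in *Cldn2*KO recovery, at 764, 608 and 1262 CPM in WT AOM/DSS and at 742, 525 and 516 CPM in *Cldn2*KO AOM/DSS. By mean the order was WT AOM/DSS (878 ± 342 CPM), WT recovery (633 ± 163), WT control (602 ± 350.1), *Cldn2*KO AOM/DSS (594 ± 128), *Cldn2*KO control (499 ± 125) and *Cldn2*KO recovery (409 ± 253), and all neighbours overlapped. *Gpx2* lies inside the span of *Fntb*, which is on the other strand.

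The first comparison asked how the genotypes differed without treatment. *Duox2* was 4.59-fold lower in *Cldn2*KO controls than in WT controls (log2 fold change -2.20 ± 0.43, SE, n = 3 per group), *Duoxa2* 7.58-fold lower (-2.92 ± 0.60), *Nos2* 43.9-fold lower (-5.45 ± 1.12) and *Ddah1* 4.80-fold lower (-2.26 ± 0.22). *Nox1* differed by -1.28 ± 0.73 on the log2 scale, *Gpx2* by -0.27 ± 0.48 and *Noxo1* by 0.17 ± 0.29. Of the 7 genes, 4 were called lower, at an adjusted p under 0.05 of edgeR's quasi-likelihood test, beside 1.17% of all tested genes called in either direction. Because the genes were chosen with this contrast known, nothing is read from that count. Without WT control replicate 2 the difference of *Nox1* was -1.82, and that of *Gpx2* was -0.71. Leaving out any *Cldn2*KO control left only *Ddah1* called.

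Markers of other cells moved with this comparison. Summed over 9 markers, B and plasma cells stood at 743 to 909 CPM in the WT controls and at 14.04 to 171 CPM in the *Cldn2*KO controls, and T and NK cells (10 markers) at 10.7 to 139 and at 1.39 to 8.50 CPM. Smooth muscle (10 markers) stood at 4267 to 6310 CPM in WT and at 8533 to 11440 CPM in *Cldn2*KO, epithelium at 25980 to 27710 and at 21170 to 25710 CPM, and endothelium (6 markers) at 55.2 to 72.4 and at 44.7 to 53.7 CPM. All markers of these lists had reads in both groups, and their part in the differences was not tested. Divided by the geometric mean of the epithelial markers, *Duox2* stood at 0.225 ± 0.0215 in the WT controls and at 0.0593 ± 0.0152 in the *Cldn2*KO controls, *Duoxa2* at 0.0527 ± 0.00185 and at 0.00833 ± 0.00180, *Ddah1* at 0.0381 ± 0.00502 and at 0.00961 ± 0.00235, and *Nos2* at 0.0236 ± 0.0131 and at 0.000654 ± 4.75e-05, so the gaps per epithelial marker level remained without overlap. When the libraries were scaled to these markers in the fit, *Nos2* was at -5.17 (edgeR adjusted p = 0.0542) and was no longer called.

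Between the genotypes in recovery, *Duox2* was 2.74-fold higher in *Cldn2*KO than in WT by mean (log2 1.45 ± 0.42), *Duoxa2* differed by 1.004 ± 0.56, *Nox1* by 1.36 ± 0.75, *Noxo1* by 0.52 ± 0.29, *Nos2* by 0.31 ± 0.91, *Ddah1* by -0.08 ± 0.21 and *Gpx2* by -0.63 ± 0.48, and for every one of the 7 the groups overlapped. None was called by edgeR, beside 0.974% of all genes. At an unadjusted p under 0.05 there was 1, beside 3371 of the 16937 genes tested. DESeq2 and limma-voom each called 1, limma-voom beside 1900 genes in all. Without *Cldn2*KO recovery replicate 1 the difference of *Duox2* was 1.83 and it was called, without WT recovery replicate 1 that of *Nos2* was 2.20, and without *Cldn2*KO recovery replicate 3 that of *Nox1* was 0.11.

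After AOM/DSS the largest difference was that of *Nos2*, -1.71 ± 0.90 on the log2 scale, and it was -0.01 without WT replicate 3, which also put *Duoxa2* at 0.79. The other 6 lay between -0.56 ± 0.48 for *Gpx2* and 0.18 ± 0.29 for *Noxo1*, with *Duox2* at 0.10 ± 0.41, *Duoxa2* at -0.04 ± 0.55, *Nox1* at -0.05 ± 0.72 and *Ddah1* at -0.03 ± 0.21. No gene of the 7 was called by edgeR, DESeq2 or limma-voom, none had an unadjusted p under 0.05, and 0.0059% of all genes were called. T and NK cell markers stood at 8.10 to 20.4 CPM in WT and 5.35 to 7.46 CPM in *Cldn2*KO AOM/DSS. *Hoxb13* stood at 198 to 285 CPM in WT and at 312 to 392 CPM in *Cldn2*KO AOM/DSS. The sum of 6 posterior Hox genes, 521.5 to 603.9 and 646.7 to 712 CPM, did not overlap either. The part of these cells and of colon region in the differences was not tested.

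**Figure D2:**
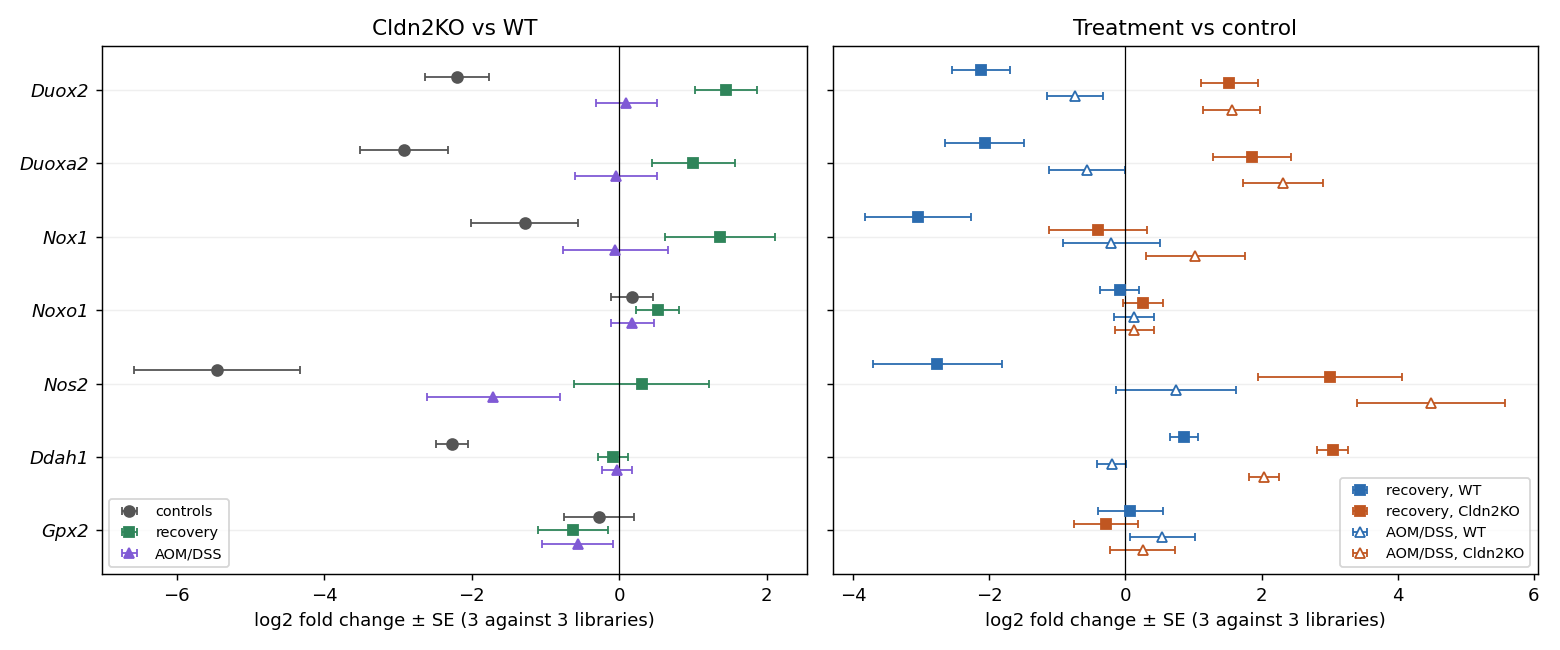
Log2 fold change of each gene (horizontal axis, bars are SE, 3 against 3 libraries), for *Cldn2*KO against WT on the left and for treatment against control in each genotype on the right. In the left panel *Duox2*, *Duoxa2*, *Nos2* and *Ddah1* lie below -2 in controls, and in the right panel *Duox2* after recovery lies at -2.12 in WT and at 1.53 in *Cldn2*KO.

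Recovery was set against control within each genotype. In WT, *Duox2* was 4.35-fold lower in recovery (log2 -2.12 ± 0.43), *Duoxa2* 4.19-fold lower (-2.07 ± 0.58), *Nox1* 8.26-fold lower (-3.05 ± 0.78) and *Nos2* 6.77-fold lower (-2.76 ± 0.95), whereas *Ddah1* was 1.82-fold higher (0.87 ± 0.21). *Gpx2* differed by 0.07 ± 0.47 and *Noxo1* by -0.09 ± 0.29. In *Cldn2*KO, *Duox2* was 2.88-fold higher in recovery (1.53 ± 0.42), *Duoxa2* 3.63-fold higher (1.86 ± 0.58), *Nos2* 8.01-fold higher (3.00 ± 1.06) and *Ddah1* 8.24-fold higher (3.04 ± 0.22), with *Nox1* at -0.40 ± 0.72, *Noxo1* at 0.26 ± 0.29 and *Gpx2* at -0.29 ± 0.48. In WT 5 genes were called, beside 22.2% of all genes, and in *Cldn2*KO 3 were called (*Duox2*, *Duoxa2* and *Ddah1*), beside 19.4%. The *Cldn2*KO groups overlapped in *Duox2* and *Duoxa2* through recovery replicate 1, and did not in *Nos2* and *Ddah1*. That replicate was the only *Cldn2*KO recovery library low in *Xist*, as all controls were. With the *Xist* covariate *Duox2* was at 1.29 in *Cldn2*KO recovery and was not called. In WT the groups overlapped in *Nox1* through control replicate 2. The *Nos2* call in WT held in 5 of 15 alternatives and was lost with RLE or epithelial scaling, with no filter and with either covariate. The WT count was 2 without WT control replicate 1, WT recovery replicate 2 or WT recovery replicate 3, and *Nos2* in WT was at -4.65 without WT recovery replicate 1. The *Cldn2*KO count was 1 without control replicate 1 or 3 or recovery replicate 2 or 3.

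With a covariate for *Hoxb13* above 10 CPM, the difference of *Nox1* in WT recovery was -0.28 and that of *Nos2* -1.49, while *Duox2* was at -1.94 and *Ddah1* at 1.18. In these fits the covariate rests on WT control replicate 2 alone, since no other group held libraries on both sides of that limit. In *Cldn2*KO recovery the same covariate put *Nox1* at 2.87 and *Gpx2* at 1.74, in place of -0.40 and -0.29. Without *Cldn2*KO recovery replicate 3 these were -1.65 and -0.92. Without WT control replicate 2 the WT recovery differences were -3.57 for *Nox1* and -0.37 for *Gpx2*. Macrophage markers (11 genes) stood at 28.4 to 72.7 CPM in recovery and at 106 to 381 CPM in the controls, and smooth muscle markers at 886 to 2438 CPM and at 4267 to 11440 CPM, and all of these genes had reads in each group. Fibroblast markers (6 genes) stood at 153 to 229.8 CPM in WT recovery and 126 to 179.5 CPM in *Cldn2*KO recovery, against 393 to 664 CPM in the controls. B and plasma cell markers stood at 92.0 to 132 CPM in WT recovery and 17.3 to 21.2 CPM in *Cldn2*KO recovery, and T and NK cell markers at 56.2 to 176 and at 23.1 to 38.0 CPM, without overlap between the genotypes. Enteric neuron and glia markers (10 genes), at 59.97 to 78.2 CPM in WT recovery and 87.7 to 101 CPM in *Cldn2*KO recovery, and macrophage markers, at 40.04 to 72.7 and 28.4 to 39.6 CPM, did not overlap between the genotypes either. Epithelial markers stood at 17210 to 25130 CPM in WT recovery, below the WT controls. Against the controls given above, B and plasma cell markers were lower in WT recovery and T and NK cell markers higher in *Cldn2*KO recovery. Endothelial markers (6 genes) stood at 14.6 to 35.6 CPM in WT recovery, below the 55.2 to 72.4 CPM of the WT controls. The 10 neutrophil markers, most of whose sum was *Ly6g*, stood at 17.9 to 87.6 CPM in *Cldn2*KO recovery, below the 342.7 to 529 CPM of the *Cldn2*KO controls, while *S100a8* and *S100a9* were higher in all 3 *Cldn2*KO recovery libraries (1.07 to 10.4 and 1.39 to 10.3 CPM) than in any of these controls. In WT recovery *S100a9* (1.22 to 3.90 CPM) was also above all WT controls (at most 0.157 CPM), while *S100a8* overlapped with them. The part of these cells was not tested.

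AOM/DSS was set against control in the same way. In WT no gene of the 7 was called by edgeR, none had an unadjusted p under 0.05, DESeq2 called 0 and limma-voom 2, beside 10.4% of all genes called by edgeR. The differences ran from -0.74 ± 0.41 for *Duox2* to 0.74 ± 0.88 for *Nos2*, and that of *Nos2* was -0.96 without WT AOM/DSS replicate 3. *Duoxa2* was at -0.57 ± 0.55 (-1.396 without that library), *Nox1* at -0.21 ± 0.72, *Noxo1* at 0.13 ± 0.29, *Ddah1* at -0.20 ± 0.21 and *Gpx2* at 0.54 ± 0.48. Without WT control replicate 2, the control low in *Hoxb13*, *Nox1* was at -0.74 and *Gpx2* at 0.11. Among all genes 345 were then called, in place of 1761. In *Cldn2*KO all 7 differences were positive. *Ddah1* was 4.09-fold higher (2.03 ± 0.22) and was the 1 gene called, beside 0.195% of all genes. *Nos2* was 22.5-fold higher by mean (4.49 ± 1.09), *Duoxa2* 4.97-fold (2.31 ± 0.59), *Duox2* 2.95-fold (1.56 ± 0.42) and *Nox1* 2.04-fold (1.03 ± 0.73), and in these 4 genes the 3 AOM/DSS libraries all stood above the 3 controls, though edgeR did not call them. *Gpx2* was at 0.25 ± 0.47 and *Noxo1* at 0.13 ± 0.29. Both DESeq2 and limma-voom called 4 of the 7, limma-voom beside 3061 of the 16937 genes tested. The count of all genes with DESeq2 is not reported here. Epithelial markers stood at 14390 to 19860 CPM in WT AOM/DSS, below the WT controls, and smooth muscle markers at 628 to 3299 CPM in WT AOM/DSS and 2596 to 6552 CPM in *Cldn2*KO AOM/DSS, below the controls of each genotype. B and plasma cell markers stood at 261 to 486 CPM in WT AOM/DSS, below the WT controls, and at 157 to 353 CPM in *Cldn2*KO AOM/DSS, where the controls had 14.04 to 171 CPM. Enteric neuron and glia markers, at 25.7 to 43.3 CPM, and endothelial markers, at 30.1 to 47.8 CPM, were also lower in WT AOM/DSS than in the WT controls, which had 65.6 to 115.7 and 55.2 to 72.4 CPM. In all 3 *Cldn2*KO AOM/DSS libraries *Csf3r* (1.27 to 2.75 CPM), *S100a8* (2.08 to 8.77 CPM) and *S100a9* (1.95 to 7.32 CPM) were above every control. The summed neutrophil markers, at 210.7 to 286 CPM and mostly *Ly6g*, were below the *Cldn2*KO controls. In WT AOM/DSS *S100a9* (1.065 to 135 CPM) was also above every control, while *S100a8* and *Csf3r* overlapped with the WT controls. The part of these cells was not tested.

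The responses of the genotypes were compared by an interaction term, the response in *Cldn2*KO minus that in WT. For recovery it was 3.65 ± 0.60 on the log2 scale for *Duox2* and 2.18 ± 0.30 for *Ddah1*, the 2 genes called, beside 0.13% of all genes. It was 3.93 ± 0.82 for *Duoxa2*, 5.76 ± 1.42 for *Nos2*, 2.65 ± 1.04 for *Nox1*, 0.35 ± 0.41 for *Noxo1* and -0.36 ± 0.67 for *Gpx2*. For AOM/DSS it was 2.24 ± 0.30 for *Ddah1*, the only one called, beside 0.0118% of all genes, 2.30 ± 0.59 for *Duox2*, 2.88 ± 0.80 for *Duoxa2*, 3.75 ± 1.37 for *Nos2*, 1.23 ± 1.02 for *Nox1*, 0.01 ± 0.41 for *Noxo1* and -0.29 ± 0.67 for *Gpx2*. All these terms share the 6 control libraries, and *Ddah1* stood at like levels in both genotypes in each treated group. Of the 12 libraries in each term, leaving out any of 9 lost the *Duox2* call, any of 5 the *Ddah1* call for recovery and any of 7 the *Ddah1* call for AOM/DSS. The values without a library ran from 3.32 to 4.03, from 2.004 to 2.34 and from 2.06 to 2.40. Among the terms not called, leaving out a library put *Nos2* between 5.26 and 7.66 (without WT recovery replicate 1) and *Nox1* between 1.395 (without *Cldn2*KO recovery replicate 3) and 3.16 for recovery. For AOM/DSS it put *Nos2* between 3.25 and 5.44 and *Duoxa2* between 2.57 and 3.70, the higher values without WT AOM/DSS replicate 3. The libraries without which the calls held were WT control replicates 2 and 3 and *Cldn2*KO recovery replicate 1 for *Duox2*.

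The direct partners of the 7 genes are described next. *Duox1*, the other dual oxidase, stood between 0.107 and 0.788 CPM in all libraries. Its maturation factor *Duoxa1* stood at 0.345 to 0.484 CPM in the *Cldn2*KO controls and at 1.11 to 3.97 CPM in the WT controls, and fell in *Cldn2*KO (log2 -2.80 ± 0.58, edgeR adjusted p = 0.0282). It fell in WT recovery (-1.996 ± 0.55, adjusted p = 0.0187) and rose in *Cldn2*KO recovery (1.75 ± 0.58, adjusted p = 0.0456). *Duoxa1* had 682 reads in all 18 libraries together and overlaps *Duoxa2* by 695 bases on the other strand, so reads from those bases cannot be told apart and its few counts are uncertain. Its calls were lost with several libraries left out, in controls with a replicate block and in recovery with the *Hoxb13* covariate. *Noxa1*, the activator of NOX1, stood at 51.0 to 69.2 CPM in the controls and rose in recovery in both genotypes, by 0.83 ± 0.17 (adjusted p = 0.00398) in WT and 0.85 ± 0.17 (adjusted p = 0.0031) in *Cldn2*KO. *Cyba*, the small membrane subunit shared by the NADPH oxidases, lay between 39.8 and 151 CPM and was not called in any comparison. *Cybb*, the oxidase of phagocytes, fell in recovery in both genotypes (-2.43 ± 0.52 in WT, adjusted p = 0.00527, and -1.94 ± 0.53 in *Cldn2*KO, adjusted p = 0.0183), along with the macrophage markers. The *Cldn2*KO call held in 8 of 15 alternatives, and the value was -0.87 without control replicate 3, whose macrophage markers stood at 381 CPM against 131 and 106 CPM in the other controls. *Rac1*, a GTPase that activates NOX complexes, was called lower in WT recovery (-0.45 ± 0.14, adjusted p = 0.0338), but in only 4 of 15 alternatives. The call was lost without any of the 6 libraries, and the value was 0.11 with scaling to epithelial markers.

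**Figure D3:**
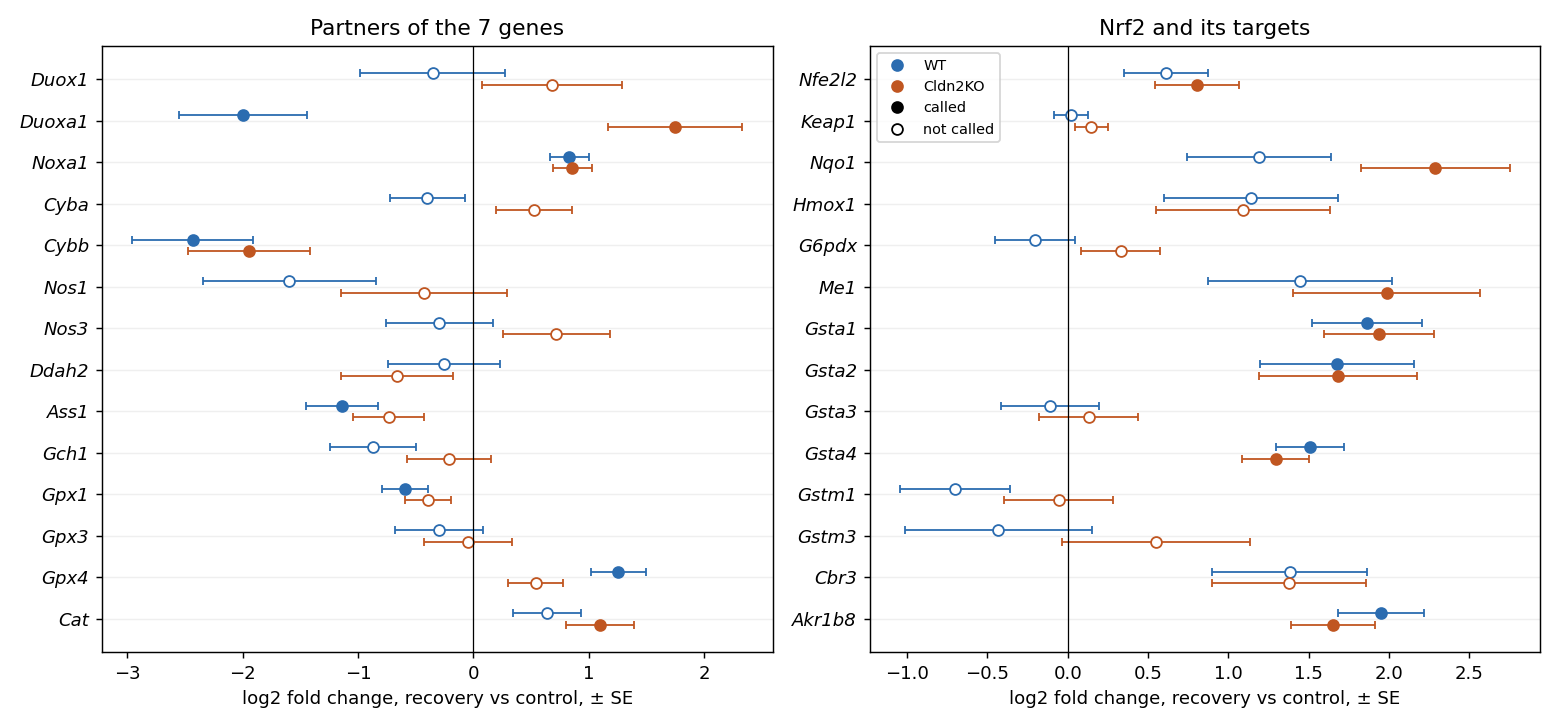
Log2 fold change of recovery against control (horizontal axis, bars are SE) in WT (blue) and *Cldn2*KO (orange) for the partners of the 7 genes (left) and for Nrf2 and its targets (right), with filled points where the gene was called at an adjusted p under 0.05 and open points where it was not. *Noxa1* is filled at 0.83 and 0.85, and *Gsta1*, *Gsta2*, *Gsta4* and *Akr1b8* are filled on the higher side in both genotypes.

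Of 91 further genes of these pathways, 87 were tested. In controls 3 were lower in *Cldn2*KO and 0 higher, 3.45% beside 1.17% of all genes. Beside *Duoxa1* these were *Irf1*, an interferon-induced transcription factor (370.3 against 191 CPM by group mean in WT and *Cldn2*KO, log2 -0.96 ± 0.18, adjusted p = 0.0146), and *Nod2*, a receptor for bacterial peptidoglycan (-2.20 ± 0.45, adjusted p = 0.0263). The median over the 87 was -0.28, against -0.0055 over all genes. In recovery 1 of the 87 was called, lower in *Cldn2*KO, which is 1.15% beside 0.974% of all genes. After AOM/DSS edgeR called 0 of the 87, with 4 at an unadjusted p under 0.05, beside 949 of all 16937 genes, and 0 by DESeq2 or limma-voom. Without *Cldn2*KO control replicate 1 or 2 the control comparison had 0 calls. The recovery count was 0 without WT recovery replicate 2 or *Cldn2*KO recovery replicate 2, 4 without *Cldn2*KO recovery replicate 1 and 2 without WT recovery replicate 1 or *Cldn2*KO recovery replicate 3.

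Recovery moved more of them. In WT 14 of the 87 rose and 15 fell, which is 33.3%, beside the 22.2% of all genes. In *Cldn2*KO 21 rose and 6 fell, 31.0% beside 19.4%. The WT split turned with the scaling. With the libraries scaled to epithelial markers 34 were higher and 4 lower in WT, and the median log2 fold change of all genes was at 0.52 in place of -0.04. In *Cldn2*KO that scaling gave 19 higher and 6 lower. Among 20 genes of nitric oxide and arginine use, 2 rose and 1 fell in WT recovery, and 3 rose and 0 fell in *Cldn2*KO recovery, 15% in each and below the share of all genes. *Ass1*, which regenerates arginine, fell in WT (-1.14 ± 0.31, adjusted p = 0.0176, called in 9 of 15 alternatives and not with epithelial scaling). *Pts*, an enzyme of tetrahydrobiopterin synthesis, rose in WT with overlapping groups (0.71 ± 0.23, adjusted p = 0.0393, called in 8 of 15 alternatives), while *Slc7a1*, a carrier of arginine, and *Nos1ap* rose in *Cldn2*KO (1.27 ± 0.25, adjusted p = 0.00311, and 2.62 ± 0.55, adjusted p = 0.00452). *Nos1*, *Nos3*, *Ddah2* and *Gch1* were not called in any comparison. *Nos3* stood between 0.444 and 2.04 CPM and *Ddah2* between 2.78 and 20.5 CPM.

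Among 24 genes of peroxide and glutathione handling, 10 were called in recovery in each genotype, 7 higher and 3 lower in WT and 6 higher and 4 lower in *Cldn2*KO. This is 41.7% in each, beside 22.2% and 19.4% of all genes, and the list's median log2 fold change was 0.15 in WT and 0.38 in *Cldn2*KO. *Prdx6*, a peroxiredoxin, fell in both (-2.60 ± 0.43, adjusted p = 0.00145 in WT, and -2.50 ± 0.43, adjusted p = 0.00131 in *Cldn2*KO), as did *Sod3*, the extracellular superoxide dismutase (-2.36 ± 0.46, adjusted p = 0.00319, and -2.94 ± 0.46, adjusted p = 0.000874). In WT *Gpx4*, which reduces lipid peroxides, rose (1.26 ± 0.24, adjusted p = 0.00284), with the peroxiredoxins *Prdx3* (1.15 ± 0.15, adjusted p = 0.000456) and *Prdx1* (1.13 ± 0.21, adjusted p = 0.00247), and *Gpx1* was called lower (-0.60 ± 0.20, adjusted p = 0.0434), but in only 5 of 15 alternatives, with a value of -0.03 under epithelial scaling. In *Cldn2*KO *Gclc*, which makes the first step of glutathione synthesis, rose (1.82 ± 0.40, adjusted p = 0.00566), with *Srxn1* (1.25 ± 0.25, adjusted p = 0.00373) and catalase, *Cat* (1.10 ± 0.29, adjusted p = 0.0167), and *Gpx8* fell (-1.51 ± 0.41, adjusted p = 0.0176). *Gpx3*, the secreted form, was not called in any comparison. *Gpx2* itself stood at overlapping levels in recovery and control in both genotypes.

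Among 14 genes of the list of Nrf2 and its targets, 4 rose in WT recovery and 7 in *Cldn2*KO recovery, and 0 fell. This is 28.6% and 50%, beside 22.2% and 19.4% of all genes, and the list's median log2 fold change was 1.16 and 1.19. *Akr1b8*, an aldo-keto reductase, rose by 1.95 ± 0.27 (adjusted p = 0.000547) and 1.65 ± 0.26 (adjusted p = 0.000919), *Gsta1*, a glutathione transferase, by 1.86 ± 0.34 (adjusted p = 0.00235) and 1.94 ± 0.34 (adjusted p = 0.00163), and *Gsta2* in WT by 1.68 ± 0.48 (adjusted p = 0.0218, called in 8 of 15 alternatives). In *Cldn2*KO the quinone reductase *Nqo1* rose by 2.29 ± 0.46 (adjusted p = 0.00392) and *Me1*, a source of NADPH, by 1.98 ± 0.58 (adjusted p = 0.0273). With the *Hoxb13* covariate none of the 27 pathway genes called in *Cldn2*KO recovery was called, and *Nqo1* was at 0.10, *Me1* at -0.70, *Gclc* at -0.10, *Srxn1* at 0.32, *Cat* at 0.17 and *Il1r1* at 0.30. Among 17 tested genes of cytokine and pattern receptor input, 8 were called lower in WT recovery and 0 higher, 47.1% beside 22.2% of all genes, led by *Hif1a* (-1.54 ± 0.44, adjusted p = 0.0215), *Il22ra1*, a receptor for IL-22 (-1.35 ± 0.40, adjusted p = 0.0247), and *Il17rc*, a receptor for IL-17 (-1.10 ± 0.29, adjusted p = 0.0152). None of the 8 was called with epithelial scaling, where these 3 stood at -0.96, -0.75 and -0.58 and *Il17ra* at 0.02, and the calls of these 3 held in 7, 8 and 11 of 15 alternatives. In *Cldn2*KO recovery *Tnf* was called higher with overlapping groups (2.95 ± 0.99, adjusted p = 0.0493), but in only 5 of 15 alternatives, and it was at 1.49 without recovery replicate 2. *Nod2* (2.85 ± 0.45, adjusted p = 0.000919) and *Il1r1* (1.11 ± 0.23, adjusted p = 0.00443) rose there and *Hif1a* fell (-1.62 ± 0.44, adjusted p = 0.0174), so that 4 of the 17 were called, 23.5% beside 19.4%. With the *Hoxb13* covariate 11 of the 87 genes were called in WT and 1 in *Cldn2*KO. In *Cldn2*KO that covariate left 133 calls among all 16937 genes, and the WT count of all genes is not reported here. Without the covariate, the WT count among the 87 was 16 without WT recovery replicate 3, 17 with WT control replicate 1 left out and 18 with WT control replicate 3 left out.

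After AOM/DSS, 7 of the 87 genes were called in WT, 3 higher and 4 lower, which is 8.05% beside the 10.4% of all genes. With epithelial scaling 31 were higher and 2 lower, beside 7639 of all 16937 genes called, and the median log2 fold change of all genes was 0.665. *Il1b*, an inflammatory cytokine, was called higher with overlapping groups (3.17 ± 0.96, edgeR adjusted p = 0.0476), in 6 of 15 alternatives, and was at 0.44 without WT AOM/DSS replicate 3. *Slc7a1* rose (0.97 ± 0.25, adjusted p = 0.0287). *Prdx6* (-1.60 ± 0.42, adjusted p = 0.0302), *Il17rc* (-1.35 ± 0.29, adjusted p = 0.0169), *Srxn1* (-1.20 ± 0.25, adjusted p = 0.0159) and *Irf1* (-0.99 ± 0.18, adjusted p = 0.00824) fell. In *Cldn2*KO the 1 gene called was *Nod2* (2.32 ± 0.45, adjusted p = 0.0494). The WT count was 2 without WT AOM/DSS replicate 3, 3 if WT control replicate 2 was left out and 4 if it was replicate 1, and *Nod2* was not called without any *Cldn2*KO control or without *Cldn2*KO AOM/DSS replicate 1 or 3. Neither interaction term called any of the 87 by edgeR, with 17 at an unadjusted p under 0.05 for recovery and 8 for AOM/DSS. Of all 16937 genes, 3141 and 1429 were at that threshold. DESeq2 called 5 and 0 of the 87, and limma-voom 10 and 2, the latter beside 1754 and 288 genes in all.

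The 7 genes were also compared with each other across libraries, separately in the 11 libraries with *Hoxb13* and the 7 without, as a description with no test, since libraries of a group share their treatment. *Duox2* and *Duoxa2* had a Pearson's r of 0.97 and 0.90 between log2 levels (Spearman's rho 0.96 and 0.79), and *Duoxa2* and *Nos2* 0.96 and 0.90 (rho 0.95 and 0.82). *Ddah1* had an r of 0.86 with *Duox2* in the 11 libraries (rho 0.87) and of -0.26 in the 7 (rho 0.18), where it was high in every recovery library whatever the level of *Duox2*. The plot of gene against gene shows the recovery libraries as a band of their own.

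**Figure D4:**
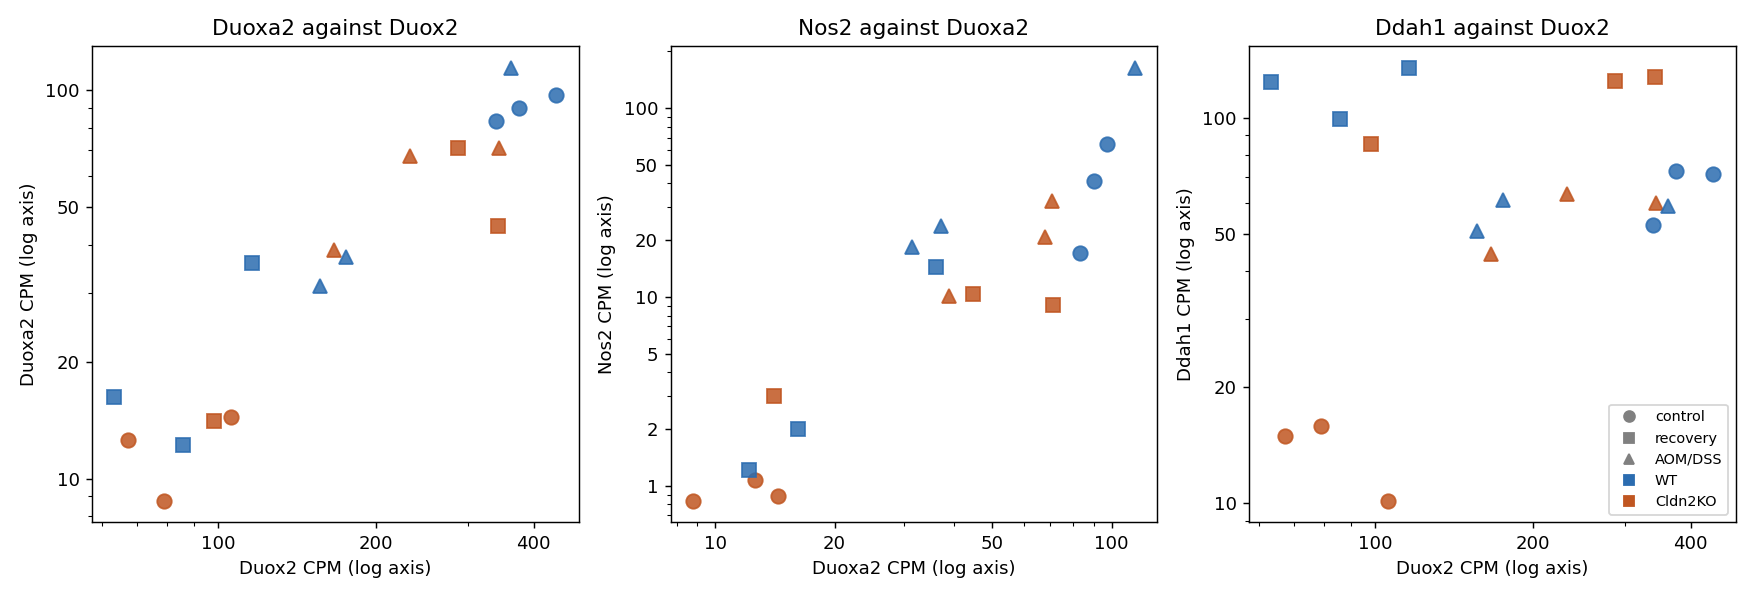
Level in CPM of *Duoxa2* against *Duox2*, of *Nos2* against *Duoxa2* and of *Ddah1* against *Duox2* (both axes log), with a point per library, WT in blue, *Cldn2*KO in orange, and circles for controls, squares for recovery and triangles for AOM/DSS. The first 2 panels run along a diagonal, and in the last the 6 recovery libraries lie between 85.6 and 135 CPM of *Ddah1* at *Duox2* levels from 63.5 to 342 CPM.

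Among 10743 genes with a mean of at least 5 CPM, those most like each of the 7 were ranked by the lower of the r in the 11 and in the 7 libraries. For *Duox2* they were *Zc3h12a*, an endonuclease of inflammatory mRNAs (0.91 and 0.91), *Duoxa2* and *Itpr3*, a calcium release channel (0.89 and 0.88). For *Duoxa2* they were *Clca3a1* (0.94 and 0.94), *Pgd*, an NADPH-making enzyme of the pentose phosphate pathway (0.92 and 0.92), and *Trim15* (0.90 and 0.93). *Nos2* was most like *Clca4c-ps*, a pseudogene whose reads could be shared with its relatives (0.97 and 0.92), *Duoxa2* (0.96 and 0.90) and *Clca3a1* (0.98 and 0.84). For *Ddah1* they were *Ctsc*, a lysosomal protease (0.90 and 0.90), *Tkt*, the transketolase (0.88 and 0.90), and *Notch4* (0.87 and 0.87). *Gpx2* was most like *Hnrnpa3* (0.94 and 0.97), *Tmem97* (0.94 and 0.93) and *Ran* (0.90 and 0.91). *Nox1* was most like *Grk6* (0.91 and 0.84), *Cstf2*, which it overlaps (0.90 and 0.83), and *Tbc1d2b* (0.80 and 0.78), and *Noxo1* like *Ppara* (0.84 and 0.84) and *Ocrl* (0.80 and 0.88).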

How the data were processed

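Per the study's methods, the authors sequenced libraries on an Illumina NovaSeq instrument, aligned reads with TopHat2 and counted them per gene with featureCounts. The submitters' processing notes name HISAT2 in place of TopHat2, with featureCounts, Subread and GRCm38. Versions, strandedness and the handling of multiply aligned reads are not given in the sources used here. Whole-number counts for each gene, 1 column per lane, were deposited without normalization. Lanes were summed (chi-square per degree of freedom 1.084 to 1.183). No pair of replicates was as alike as lanes (lowest 11.88 over 18 pairs). Of 47729 identifiers, 47310 matched GENCODE M21, which gave symbols and positions.

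The 16937 genes kept by filterByExpr were fitted with edgeR 4.0.16 (quasi-likelihood, robust, TMM, 1 mean per group, all 18 libraries, biological coefficient of variation 0.315) in R 4.3.3, with Benjamini-Hochberg adjustment over all genes and calls at an adjusted p under 0.05. The SE is the log2 fold change divided by the root of the F statistic. The fit was tested on simulated counts of 16937 genes for *Cldn2*KO against WT in controls, with 100 genes changed by a log2 of 1 and 100 by a log2 of 2. It recovered 44% and 93% of them. Correlations used log2(CPM + 0.5).

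The 7 genes, the 91 pathway genes, the markers and the alternatives were chosen with earlier results of these data known. From each pathway list, up to 3 higher and 3 lower called genes with the largest change were named per comparison, and fixed partners whatever their values. For each of the 7 genes, 3 like genes were named (predicted genes left out). A few genes that this rule names are not reported here. Alternatives were RLE or epithelial scaling, other filters, DESeq2 1.42.0, limma-voom (limma 3.58.1), a fit of only the groups compared, *Hoxb13* or *Xist* covariates, other thresholds, leaving out each library, and a replicate block in controls. Depth was 17.6 to 27.4 M reads, so a gene at 1 CPM rests on about as many reads as there are M reads.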

Additional observations from a re-analysis of the deposited data

Results flagged for a closer look

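The response to recovery differed between genotypes, by the interaction term of the edgeR fit, in *Duox2*, by 3.65 on the log2 scale, and in *Ddah1*, by 2.18. The response to AOM/DSS differed in *Ddah1*, by 2.24. In *Ddah1* all 3 *Cldn2*KO libraries of each treated group stood above all 3 *Cldn2*KO controls. In *Duox2* all 3 WT recovery libraries stood below the 3 WT controls, and 2 of 3 *Cldn2*KO recovery libraries stood above the 3 *Cldn2*KO controls. Those 2 were high in *Xist* (1450 and 1391 CPM), whereas *Cldn2*KO recovery replicate 1 and all controls were low. WT recovery replicates 2 and 3 were high in *Xist* too. With the *Xist* covariate the *Duox2* term was 3.56 and was not called. The part of sex was not tested. The genes were chosen with these values known, so the terms are given as a description.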

How the results depend on the processing

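Counts of called genes among the 7, with edgeR's quasi-likelihood count first, moved as follows. In controls (4) the count was 1 at an adjusted p under 0.01 and 1 with no filter. Between genotypes in recovery (0) it was 1 at 0.1, 1 with DESeq2 and 1 with limma-voom. For WT recovery (5) it was 2 at 0.01, 3 with no filter, 3 with only the groups compared, 2 with the *Hoxb13* covariate and 3 with the *Xist* covariate, and for *Cldn2*KO recovery (3) it was 1 at 0.01, with no filter and with either covariate. For WT AOM/DSS (0) it was 1 with epithelial scaling and 2 with limma-voom, and for *Cldn2*KO AOM/DSS (1) it was 4 with DESeq2, 4 with limma-voom and 5 with only the groups compared. The recovery interaction (2) gave 4 at 0.1, 0 at 0.01, 4 with epithelial scaling, DESeq2 or limma-voom, and 1 with no filter, only the groups compared or the *Xist* covariate. The AOM/DSS interaction (1) gave 0 at 0.01, with epithelial scaling or with only the groups compared, 3 with DESeq2 and 4 with limma-voom.

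Counts among the 87 pathway genes moved too. In controls (3) they were 7 at 0.1, 0 at 0.01, 1 with epithelial scaling, 8 with DESeq2 and 22 with limma-voom. Between genotypes in recovery (1) they were 9 at 0.1, 0 at 0.01, 5 with epithelial scaling, 10 with DESeq2, 13 with limma-voom, 0 with only the groups compared and 2 with the *Hoxb13* covariate. WT recovery (29) gave 13 at 0.01, 54 with limma-voom, 15 with only the groups compared, 11 with the *Hoxb13* and 18 with the *Xist* covariate, and *Cldn2*KO recovery (27) gave 15 at 0.01, 42 with limma-voom and 1 with the *Hoxb13* covariate. WT AOM/DSS (7, 3 higher and 4 lower) gave 20 at 0.1, 1 at 0.01, 33 with epithelial scaling (31 higher and 2 lower), 4 with no filter, 16 with DESeq2, 14 with limma-voom, 0 with only the groups compared and 3 with the *Hoxb13* covariate. *Cldn2*KO AOM/DSS (1) gave 0 at 0.01, with RLE scaling and with the *Xist* covariate, 7 with DESeq2, 20 with limma-voom and 7 with only the groups compared. The recovery interaction (0) gave 3 at 0.1, 7 with epithelial scaling, 5 with DESeq2, 10 with limma-voom and 1 with the *Hoxb13* covariate, and the AOM/DSS interaction (0) gave 2 with limma-voom. The cause of these moves was not tested. The other 128 of 200 such counts stayed within 1.5 times. Epithelial scaling put the median log2 fold change of all genes between -0.46 and 0.67 over the comparisons, against -0.039 to 0.047 with TMM, so its values are relative to that shift.

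With each library left out, the count among the 7 ran from 1 to 4 in controls, 0 to 1 between genotypes in recovery, 0 to 0 in AOM/DSS, 2 to 5 for WT recovery, 1 to 3 for *Cldn2*KO recovery, 0 to 0 for WT AOM/DSS, 1 to 1 for *Cldn2*KO AOM/DSS, and 0 to 4 and 0 to 1 for the recovery and AOM/DSS interactions. Among the pathway genes it ran, in the same order, from 0 to 4, 0 to 4, 0 to 0, 16 to 34, 18 to 25, 2 to 10, 0 to 1, 0 to 2 and 0 to 0. Over every alternative the calls among all genes ran from 25 to 2526 in controls (199), 3 to 1900 between genotypes in recovery (165), 1 to 4 in AOM/DSS (1), 1408 to 8086 for WT recovery (3767), 133 to 5721 for *Cldn2*KO recovery (3291), 7 to 7639 for WT AOM/DSS (1761), 4 to 3061 for *Cldn2*KO AOM/DSS (33), and 0 to 1754 (22) and 0 to 288 (2) for the interactions. Of 1036 log2 fold changes of the 7 genes, 997 moved by less than the spread between replicates, and no called one changed sign. That spread, a pooled SD of log2 levels, ran from 0.268 for *Ddah1* to 1.056 for *Nox1* and 1.162 for *Nos2*. A wide move in the last 2 genes therefore still counted as within it. The alternatives also share most of their libraries, so the count does not measure how firm the calls are. *Ddah1* was called in controls, in recovery in both genotypes and in *Cldn2*KO AOM/DSS under every alternative run.

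Replicate numbers recur in each group, and in the controls the deviations of same-numbered libraries correlated at 0.174, 0.021 and 0.076, so the numbers were not taken as a pairing. WT control replicate 2 correlated best with *Cldn2*KO control replicate 3 (0.047). With a replicate block the control comparison called 4 of the 7, 3 pathway genes, of which *Duoxa1* was no longer 1, and 179 genes in all. Low counts limit *Noxo1* (30 to 126 reads), *Duoxa1* and *Nos2* in the *Cldn2*KO controls (16 to 20 reads).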
